A study of Mus musculus with 3 samples.

Results

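Bile duct and progenitor marker genes were followed in mouse livers that carried human YAP. They were 8 genes: the keratins Krt7, Krt19 and Krt23, the surface proteins Epcam, Prom1 and Cftr, the secreted protein Spp1 and the transcription factor Sox9. All non-control probes with a RefSeq entry of these genes were taken. This gave 9 probes (2 for Prom1 and 1 for each other gene) of 55681 on the array, and 8 of 20284 named genes. Probes of these genes under other identifiers, if any, were not included. The rule lists the 8 genes by name, as known markers, and sets no threshold on a measured value.

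Bile duct cells (cholangiocytes) line the tubes that drain bile and alter it by moving chloride, bicarbonate and water. They are set apart from hepatocytes by simple-epithelium keratins, by adhesion proteins on their surface and by Sox9. Liver progenitor cells and the ductular reaction of injured liver share many of these markers. YAP is a transcriptional coactivator that the Hippo kinases hold back by phosphorylating serines, and in the liver it is highly active in duct cells and low in hepatocytes.

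Gene expression was measured in liver of c57BL6/J mice, male and 8 weeks old per the methods, at 2 days after a plasmid for Myc-tagged human YAP was delivered by hydrodynamic tail vein injection. The groups were wild-type YAP (WT) and the active mutants YAP (1SA) and YAP (2SA), in which 1 or 2 serines are replaced by alanine. Expression was driven by the mouse Afp enhancer and the albumin promoter, so the plasmid acts in hepatocytes, and only some hepatocytes take it up. All 3 groups therefore shared the injection and an added human YAP, and no uninjected liver was analysed here.

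Each group held 1 array, and whether its RNA came from 1 animal or several was not given by the labels. A difference between groups cannot be told apart from a difference between liver samples, so values and differences are given with neither tests nor p-values. The values were spot intensities after background subtraction by the scanner software. A level is the log2 of a probe's intensity over the 75th percentile of its array, which was 290.8 in WT, 275.7 in 1SA and 319.5 in 2SA. Whole tissue was used, so fewer cells of a type and less RNA per cell cannot be told apart. The probe for mouse Yap1 is no check of the labels, since the plasmid carried the human gene.

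Hepatocyte markers were well above background on all 3 arrays for 12 of 12 genes, among them Alb, Ttr and Apoa1. The only repeat measurement was that of probes printed in several spots, with a median SD of 0.07 on the log2 scale on every array. For spot error, 270 probes printed in 10 spots were used, measured on all 3 arrays with at least 8 spots kept. Dim probes spread more, with an SD of 0.18 at the level of Krt7 in WT. The standard errors below are built from such spots at the nearest intensity at hand, cover error between spots only, and leave out the spread between animals. Krt7, Epcam, Cftr and the dimmer Prom1 probe were given the same SD, 0.18 in WT and 0.17 in 1SA, though their intensities differed. Spot error may therefore be too small for the dimmest probes, and it leaves out the scanner software's own error. A difference is called beyond spot error where its 95% interval from this source leaves out 0.

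All 9 probes were well above background on all 3 arrays. The 1SA array gave the lowest level for 7 of the 8 genes, with Prom1 read by its brighter probe, and the exception was Cftr. What share of all genes had 1SA as their lowest array was not computed. Taken pair by pair, 50.4% of all genes had a 1SA level below that of WT. For the mutants, 45.4% of all genes had a 2SA level above that of 1SA. Spp1 was 3.32-fold lower in 1SA than in WT, Krt23 was 2.69-fold lower, and the brighter Prom1 probe was 2.34-fold lower. Against WT, no gene differed by 2-fold in 2SA, where the largest difference was -0.51 on the log2 scale, for Prom1. WT had the highest level for Krt19, Epcam, Spp1 and Prom1, and 2SA had it for Krt7, Sox9 and Krt23.

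**Figure D1:**
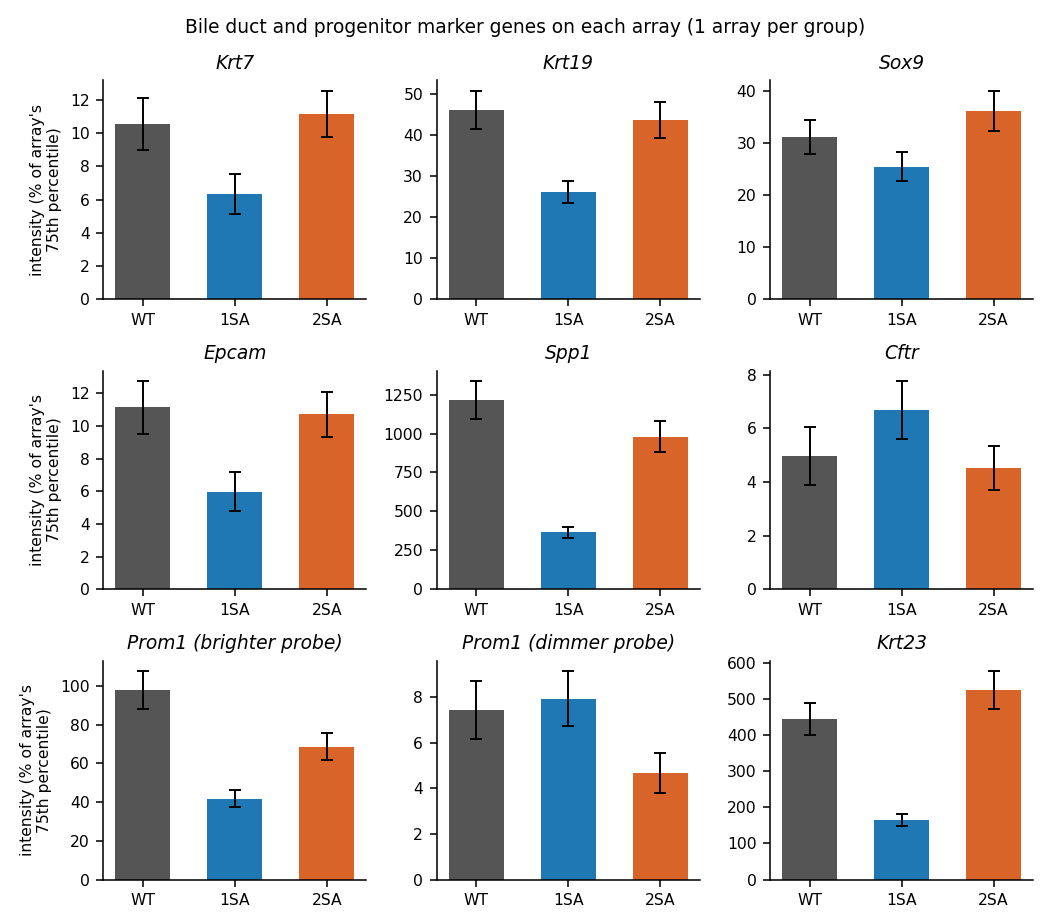
Intensity of each of the 9 member probes on the WT, 1SA and 2SA arrays, as a percentage of the array's 75th percentile, with 1 array per group. Error bars are the scanner software's error for the probe. Each panel has its own scale, and the 1SA bar is the lowest in 7 of the 9 panels, while Cftr and the dimmer Prom1 probe have their highest bar there.

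Among the keratins, Krt19, a duct keratin of simple epithelia, had an intensity of 134.1 in WT, 71.9 in 1SA and 139.6 in 2SA. Its levels were -1.12, -1.94 and -1.19, so that WT and 2SA lay together and 1SA lay below. The difference was -0.82 (SE 0.15) for 1SA minus WT and -0.08 (SE 0.13) for 2SA minus WT, and the second was within spot error.

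Krt7, which pairs with Krt19 in filaments of duct epithelium, had intensities of 30.7, 17.5 and 35.7 in WT, 1SA and 2SA. Its 1SA minus WT difference was -0.73 (SE 0.25), while 2SA minus WT, at 0.08 (SE 0.25), was within spot error. Krt7 was a dim probe, and its scanner errors were 4.54, 3.28 and 4.48 intensity units.

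Krt23 is an epithelial keratin found in duct cells and in injured liver. Its intensity was 1292 in WT, 456.1 in 1SA and 1674 in 2SA. It was the only keratin of the 3 that passed 2-fold in 1SA, with a difference of -1.43 (SE 0.09). It was also the member furthest apart between the mutants, at 1.66 (SE 0.09) for 2SA minus 1SA, which is 3.17-fold higher in 2SA. Against WT, 2SA was higher by 0.24 (SE 0.09), beyond spot error and in the opposite direction to 1SA.

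Epcam, an adhesion glycoprotein of duct and progenitor cells, had intensities of 32.4, 16.5 and 34.2 in WT, 1SA and 2SA. Its difference was -0.90 (SE 0.25) in 1SA and -0.06 (SE 0.25) in 2SA against WT. As for Krt7 and Krt19, WT and 2SA were inside spot error of each other and 1SA was below both. Krt7 and Epcam are dim, and with normexp, another background correction, their 1SA minus WT differences were -0.16 and -0.17 and their 2SA minus 1SA differences 0.13 and 0.06, all smaller than their spot errors above.

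Prom1, a membrane glycoprotein of apical protrusions that is used to mark progenitor cells, had 2 probes that disagreed. The brighter probe, of NM_001163577, read 284.6 in WT, 115.4 in 1SA and 219.7 in 2SA. The dimmer probe, of NM_008935, read 21.6, 21.9 and 14.9, with scanner errors of 3.67, 3.31 and 2.79 intensity units. On the brighter probe 1SA was the lowest array, and on the dimmer probe 2SA was.

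For 1SA minus WT the brighter Prom1 probe gave -1.22 (SE 0.12) and the dimmer probe 0.10 (SE 0.25), which was within spot error. For 2SA minus WT the probes gave -0.51 (SE 0.11) and -0.67 (SE 0.25), both lower and beyond spot error. For 2SA minus 1SA they opposed each other, at 0.72 (SE 0.12) and -0.77 (SE 0.24). The order of Prom1 in 1SA and 2SA therefore depends on the probe, and with the mean of both probes the 1SA minus WT difference was -0.56.

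Cftr, the chloride channel of the apical duct membrane, had intensities of 14.4, 18.5 and 14.5 in WT, 1SA and 2SA. It was the only gene of the 8 with its highest level in 1SA. Its probe was dim, at 1.15 times the lowest intensity measured on the array in WT, 1.80 times in 1SA and 2.44 times in 2SA. The differences from WT were 0.43 (SE 0.25) in 1SA and -0.13 (SE 0.25) in 2SA, both within spot error, and 2SA minus 1SA was -0.56 (SE 0.24). With normexp, 2SA minus 1SA was -0.27. The scanner errors of the Cftr probe were 3.18, 2.97 and 2.64 intensity units in WT, 1SA and 2SA, and its spot errors leave them out.

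Spp1 encodes osteopontin, a secreted phosphoglycoprotein made by duct cells and also by macrophages and stellate cells. Its intensity was 3536 in WT, 1009 in 1SA and 3132 in 2SA, at levels of 3.60, 1.87 and 3.29. The difference was -1.73 (SE 0.08) for 1SA minus WT and -0.31 (SE 0.08) for 2SA minus WT, each beyond spot error and in the same direction. The mutants were 1.42 (SE 0.08) apart, which is 2.68-fold higher in 2SA.

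Sox9, a transcription factor that sets bile duct fate in the embryonic liver, was the only member with repeated spots. Its 10 spots in WT ran from 79.6 to 106.2 with a median of 88.9, its 10 spots in 1SA from 56.8 to 80.7 with a median of 71.1, and its 9 spots kept in 2SA from 91.3 to 129.2 with a median of 120.2. After scaling, 6 of the 10 spots in 1SA lay below every WT spot and 6 of the 9 spots in 2SA lay above every WT spot, so the spot ranges overlapped in both cases.

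The mean Sox9 level was -1.68 (SD 0.13 over spots) in WT, -1.97 (SD 0.17) in 1SA and -1.46 (SD 0.17) in 2SA. The differences from WT were -0.29 (SE 0.07) in 1SA and 0.22 (SE 0.07) in 2SA. These were the smallest differences among the members that were beyond spot error in each mutant, and they pointed in opposite directions. With normexp, another background correction, the 2SA difference was 0.06, within the same spot error.

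**Figure D2:**
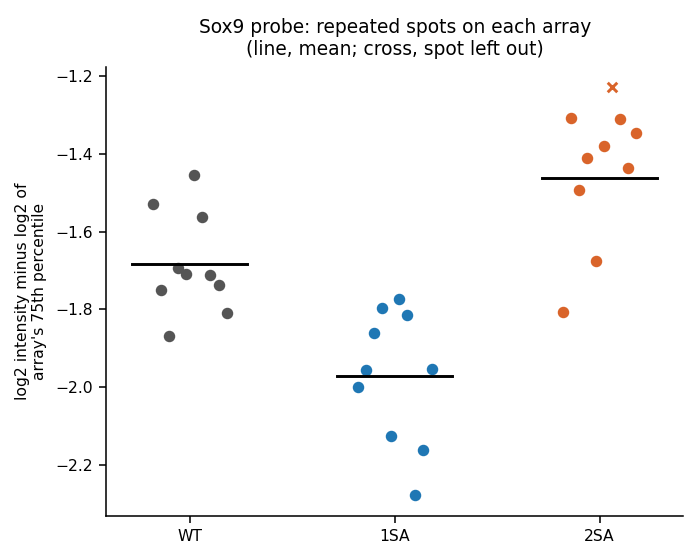
Level of each repeated Sox9 spot on the WT, 1SA and 2SA arrays, as the log2 of its intensity over the 75th percentile. Lines are means of the spots used, and the cross is the 1 spot of 2SA that was left out. The means lie at -1.68, -1.97 and -1.46, and the ranges of neighbouring arrays overlap.

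Taking the 8 genes as a list with the brighter Prom1 probe, 3 of 8 lay 2-fold or more below WT in 1SA and 0 passed 2-fold upwards. The background among the 28032 probes measured on these arrays was 0.974% lower and 0.746% higher by that threshold. The median of the 8 differences was -0.86, beside -0.00 over 13675 genes. With normexp, which draws dim values together, the member median was -0.29 and Prom1, at -0.89, no longer passed 2-fold. By their 1SA minus WT difference among those probes, Spp1 was at place 43 from the lowest, Krt23 at 78, the brighter Prom1 probe at 136, Epcam at 374, Krt19 at 476, Krt7 at 630 and Sox9 at 3544. Counted by spot error, 7 of 8 were lower beyond it and 0 higher, beside 14.2% of all probes lower and 16.3% higher. With normexp, Krt7 and Epcam came to -0.16 and -0.17, no longer beyond the same spot error.

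Between 2SA and WT, 0 of 8 passed 2-fold in either direction, beside 0.923% of 28290 probes higher and 0.732% lower. The median member difference was -0.07, and that of 13786 genes was -0.03. Sox9 and Krt23 were higher beyond spot error and Spp1 and Prom1 lower, beside 12.5% of probes higher and 17.5% lower. With normexp, Sox9 came to 0.06, no longer beyond the same spot error. The other 4 genes, Krt7, Krt19, Epcam and Cftr, were within spot error of WT.

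Between the mutants, 2 of 8 genes (Krt23 and Spp1) were at least 2-fold higher in 2SA than in 1SA and 0 were lower, beside 1.89% of 28851 probes higher and 1.27% lower. The median was 0.78, beside -0.03 over 13875 genes, and 0.30 with normexp. All 8 were beyond spot error, 7 higher and Cftr lower, where 16% of probes were higher and 24.6% lower by that measure. Prom1 counts here by its brighter probe, while its dimmer probe gave -0.77. With normexp, Krt7, Epcam and Cftr came to 0.13, 0.06 and -0.27, no longer beyond the same spot error. Both differences from WT use the same WT array, and both comparisons that hold 1SA use the same 1SA array, so they are given side by side and are not separate evidence.

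**Figure D3:**
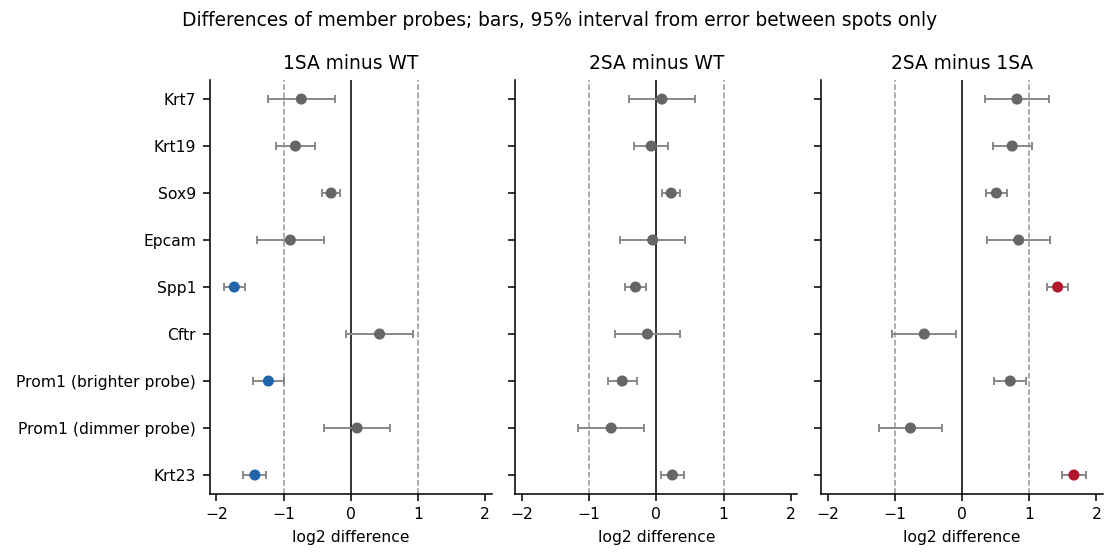
Log2 difference of each of the 9 member probes in the 3 comparisons. Bars are 95% intervals from error between spots only, dashed lines mark 2-fold, blue points are at least 2-fold lower and red points at least 2-fold higher. The 2 Prom1 probes lie on opposite sides of 0 in the comparison of 2SA with 1SA.

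**Figure D4:**
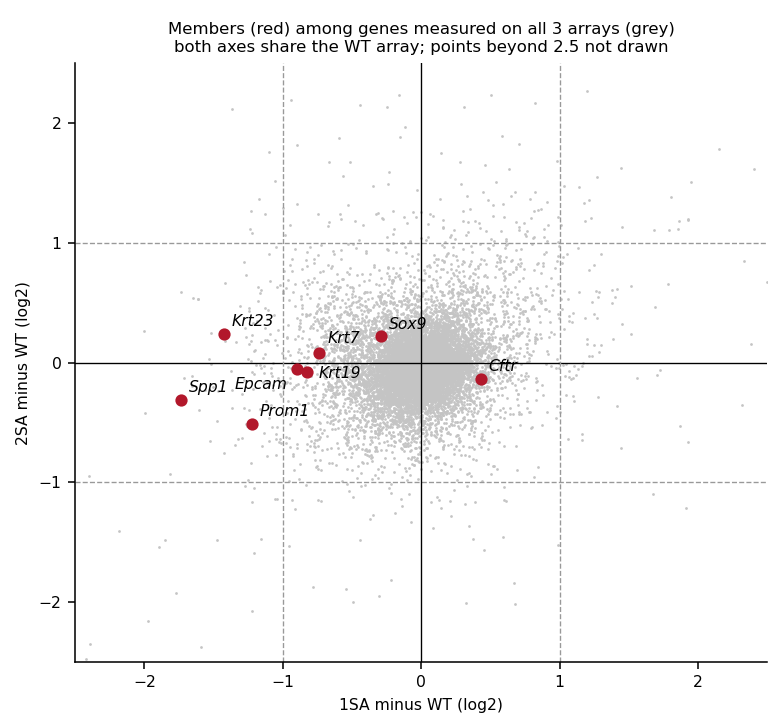
Difference from WT in 1SA (horizontal) and 2SA (vertical), both log2, for genes measured on all 3 arrays (grey) and the 8 members (red, brighter Prom1 probe). Both axes share the WT array. Spp1, Krt23 and Prom1 lie left of the 2-fold line, and no member lies past 2-fold vertically.

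The 3 genes past 2-fold in 1SA are shown with the DNA before their starts, to let a reader see what their promoters hold. Promoters of RefSeq (build GRCm38.p6) were at hand for 6 of the 8 genes, in 8 windows. Windows of 300 bases were searched on both strands for GGAATG (the TEAD factors, through which YAP binds DNA), TGGGAA (RBPJ, the Notch pathway factor) and TGANTCA (AP-1). The 250 bases before the start are printed 5′ to 3′ on the gene's strand, with matches in capitals, for Prom1 (chr5:44101737-44101986, minus strand), Spp1 (chr5:104434861-104435110, plus strand) and Krt23 (chr11:99493121-99493370, minus strand).
Prom1: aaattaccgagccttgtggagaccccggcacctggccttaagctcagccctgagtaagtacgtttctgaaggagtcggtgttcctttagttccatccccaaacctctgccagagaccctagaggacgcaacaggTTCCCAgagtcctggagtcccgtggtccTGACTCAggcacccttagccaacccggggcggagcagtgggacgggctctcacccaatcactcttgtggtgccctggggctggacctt
Spp1: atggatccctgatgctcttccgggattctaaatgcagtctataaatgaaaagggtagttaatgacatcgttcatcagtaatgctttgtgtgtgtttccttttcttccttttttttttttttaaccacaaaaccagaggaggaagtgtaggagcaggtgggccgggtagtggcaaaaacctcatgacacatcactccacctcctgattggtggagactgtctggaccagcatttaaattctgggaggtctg
Krt23: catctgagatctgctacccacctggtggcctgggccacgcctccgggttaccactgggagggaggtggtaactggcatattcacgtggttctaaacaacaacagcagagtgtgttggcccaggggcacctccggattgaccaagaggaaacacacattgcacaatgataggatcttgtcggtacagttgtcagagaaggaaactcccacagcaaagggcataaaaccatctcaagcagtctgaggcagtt

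The Prom1 window held 1 match to TGGGAA, read on the opposite strand as TTCCCA, and 1 match to TGANTCA. The window of another Prom1 start, at chr5:44094769-44095018, held 1 match to TGANTCA. The windows of Spp1, Krt23, Krt7, Epcam and Cftr held 0 matches to the 3 motifs, and no window of the 6 genes held GGAATG. Over all 32851 promoter windows the share with a match was 14.7% for GGAATG, 25.6% for TGGGAA and 7.81% for TGANTCA. A match is a description, and no match says only that these letters are not in this window. GC content of the printed bases was 59.2% for Prom1, 43.6% for Spp1 and 52.8% for Krt23.

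A wider set of 45 duct and progenitor genes, in 5 lists, left out the 8 members. Of 34 measured in both WT and 1SA, 1 was at least 2-fold higher and 2 lower in 1SA, 9 were higher and 25 lower at any size, and the median was -0.18. Over all genes, 0.739% were at least 2-fold higher, 1.14% were at least 2-fold lower and 50.4% were lower at any size in that comparison. In 2SA against WT the same counts were 2 and 1 past 2-fold, 19 higher and 16 lower of 35, with a median of 0.03. There 1.15% of all genes were at least 2-fold higher, 0.58% at least 2-fold lower and 56.6% lower at any size. In 2SA against 1SA they were 4 and 2, 25 and 10 of 35, with a median of 0.18. There 2.49% of all genes were at least 2-fold higher, 1.17% at least 2-fold lower and 45.4% higher at any size. Tnfrsf12a and Lgr5 were further apart between the mutants than any member.

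Among the duct keratins and junction genes, 7 of 8 were lower in 1SA than in WT, beside 50.4% of all genes, with a median of -0.19. The main simple-epithelium keratins Krt8 and Krt18, which hepatocytes also make, differed by -0.24 and -0.19 in 1SA and by 0.22 and 0.16 in 2SA. E-cadherin (Cdh1) differed by -0.13 and 0.01. Tspan8, a tetraspanin of epithelial surfaces, was the only gene of that list past 2-fold, at -1.04 in 1SA and -0.13 in 2SA. Itgb6 was not well above background on any array.

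The 6 measured transport genes had medians of -0.09 in 1SA and -0.16 in 2SA. Differences from WT in 1SA and 2SA were -0.07 and -0.14 for Aqp1, the water channel of duct cells, 0.18 and 0.19 for the anion exchanger Slc4a2, and -0.15 and 0.03 for the secretin receptor Sctr. The chloride channel Ano1 had -0.55 and -0.63, the bile acid transporter Slc10a2 0.02 and -0.48, and the bile acid receptor Gpbar1 -0.10 and -0.18. None of the 6 passed 2-fold. Of the 5 cilium genes, Pkhd1, Pkd1 and Pkd2, which are mutated in polycystic disease, lay between -0.11 and 0.39 against WT in both mutants. Bicc1, an RNA-binding protein of the same list, was past 2-fold in 2SA, at 1.03 against WT and 1.48 against 1SA.

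For the duct transcription factors the median against WT was -0.19 (1SA) and 0.08 (2SA). The Notch target Hes1 differed by -0.24 and 0.56. Onecut2, the brightest of the list, differed by 0.32 and -0.19. Onecut1 was 0.39 in 1SA and -1.17 in 2SA against WT, and Sox4 was -0.97 and 0.21, so these genes stood 2-fold or more apart between the mutants, at -1.56 and 1.17.

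The progenitor and ductular reaction genes had the lowest median of the 5 lists in 1SA, at -0.35. Mmp7, a matrix protease of duct epithelium, was lowest, at -1.24 in 1SA and 0.15 in 2SA. It was dim, at an intensity of 30.1 in WT and 12.0 in 1SA, where the lowest measured intensity was 10.3. Lgr5, a Wnt target and stem cell receptor, was 1.16 in 1SA and -0.60 in 2SA. Of the members Cftr had the same signs, but both of its differences from WT were within spot error. Tnfrsf12a, the receptor for the cytokine Tweak, was -0.35 in 1SA and 1.48 in 2SA. Cd24a differed by -0.56 and 0.11, Cd44 by -0.27 and 0.08, and Afp, whose enhancer is also in the plasmid, by -0.63 and 0.13.

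**Figure D5:**
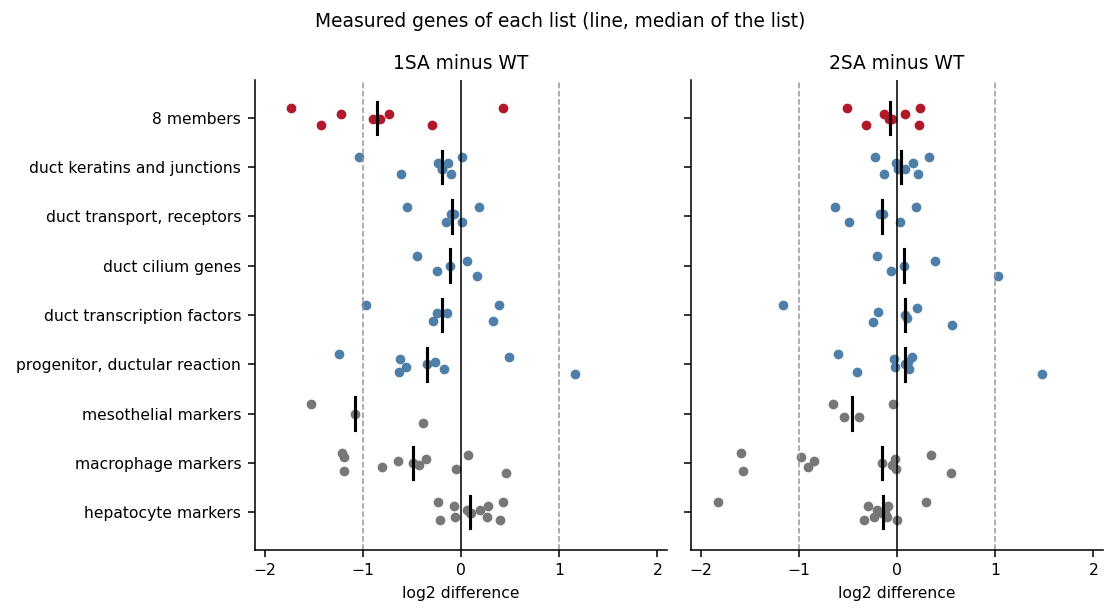
Log2 difference from WT of each measured gene in the 8 members (red), 5 duct and progenitor lists (blue) and 3 cell type lists (grey), with the median as a black line and 2-fold as dashed lines. In 1SA the medians were -0.86 for the members, -0.35 to -0.09 for the duct lists and -1.08 for 3 mesothelial genes.

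Markers of other cell types also differed between these arrays, and their part in the member differences was not tested. Mesothelial cells, which cover the liver, also make Krt7 and Krt19. Their markers summed to 1.31 times the 75th percentile in WT, 0.611 in 1SA and 0.944 in 2SA. Msln was the brightest of them and made up most of the sum, at an intensity of 248 in WT. Msln differed by -1.08 in 1SA and -0.54 in 2SA, Wt1 by -1.53 and -0.65, and Gpm6a by -0.39 and -0.38. Wt1 was dim, at an intensity of 46.2 in WT and 15.2 in 1SA, where the lowest measured intensity was 10.3. Upk3b, with an intensity of 39.7 in WT and 42.5 in 2SA, was not well above background in 1SA, where it was at least 3.53-fold lower than in WT and at least 3.44-fold lower than in 2SA. The summed level of the 8 members was 18.6, 6.44 and 16.8. Spp1 and Krt23 made up most of it, at 12.2 and 4.44 in WT.

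Macrophages can make Spp1. Of 11 macrophage markers measured, 9 were lower in 1SA than in WT and 9 lower in 2SA than in WT, with medians of -0.49 and -0.16, beside 50.4% and 56.6% of all genes lower. Their sums were 251.1, 187.2 and 152.9 in WT, 1SA and 2SA. Cd5l and Marco were the brightest of them and made up most of the sum in WT, at intensities of 33571 and 15275. Gpnmb, Trem2 and Itgax, genes of activated macrophages, differed by -1.20, -0.81 and -1.19 in 1SA and by -0.02, -0.05 and 0.34 in 2SA. Adgre1 differed by -0.49 and -0.16, and Cd5l by -0.42 and -0.84. Timd4 was -0.36 and -0.97, Vsig4 0.07 and -0.90, and Csf1r -0.05 and -0.01. The Kupffer cell gene Clec4f ran the other way, at 0.45 in 1SA and -1.56 in 2SA, and Marco was lower in both, at -1.21 and -1.59. Lyz2, the lysozyme of myeloid cells, was -0.65 and 0.55, and the leukocyte gene Ptprc was -0.61 and 0.53. The part of macrophages in the Spp1 difference was not tested.

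The stellate cell and fibroblast list had medians of -0.12 in 1SA and -0.59 in 2SA, with Acta2 at -1.27 and -0.51, Rgs5 at 0.56 and -0.66 and Lrat at 0.26 and -0.60. Reln, with an intensity of 18.7 in 1SA, was not well above background in WT or 2SA, and was at least 1.58-fold and 3.40-fold higher in 1SA than there. The haemoglobin genes Hba-a1 and Hbb-bt of the blood list were 0.90 and 1.01 in 1SA and 0.45 and 0.53 in 2SA. Endothelial markers had medians of 0.00 and -0.05, with Stab2 at 0.12 and -0.21. Hepatocyte markers had medians of 0.09 and -0.14, and 0 of 12 passed 2-fold in 1SA, while Cyp7a1, the rate-limiting enzyme of bile acid synthesis, was -1.82 in 2SA. Of the 7 pancreas genes, Cela1, Ctrb1 and Amy2a5 were well above background on all 3 arrays, at differences of -0.08, 0.13 and 0.26 in 1SA and -0.69, -0.06 and 0.13 in 2SA, and Cpa1, Pnlip, Prss2 and Ptf1a were on none. Of the gut list, Cdx2 was not well above background on any array, Fabp2 was -0.40 in 1SA and -0.52 in 2SA, Lgals4 was -1.23 in 1SA and 0.01 in 2SA, Tff3 was 1.13 and -0.05, and Vil1 was not well above background in 1SA and at least 2.07-fold lower there than in WT.

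The named genes whose pair of differences from WT lay nearest to that of a member were found for Spp1, Prom1 and Krt23, which each spanned at least 1 on the log2 scale over the 3 arrays. Likeness is the distance between the pairs, among 13048 genes. Nearest to Spp1 were Tgtp1 (0.14), Ubd (0.15) and Ccl8 (0.18), which are genes of the interferon and chemokine response. Nearest to the brighter Prom1 probe were Adam32 (0.04), Acta2 (0.04) and Acot5 (0.11). Nearest to Krt23 were Mmp13 (0.06), a collagenase, S100a6 (0.09), a calcium-binding protein, and Serinc2 (0.11). With 3 arrays, 4 genes lay within 0.2 of Spp1, 13 of Prom1 and 5 of Krt23, and no member was among another's nearest 3.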

How the data were processed

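Mouse liver RNA was hybridised to 3 one-colour Agilent arrays on 1 slide and scanned by the authors. The deposited intensity of a spot is linear, background-subtracted by Agilent Feature Extraction 10.10.1.1 per the file headers, and unscaled. The matrix of the series repeated it multiplied by 3.02 in WT, 3.08 in 1SA and 2.81 in 2SA, and served as an alternative. Each array had 59305 non-control spots. Outlier spots were left out (148 to 182 per array, 0 saturated), log2 values were averaged per probe and each array's 75th percentile was subtracted. A probe was measured where at least 50% of its spots were well above background (28972 to 30784 probes). A gene took its brightest probe measured on both arrays. A bound is the brighter value over the dim one, or over the lowest measured intensity where that was higher. Spot errors used the 50 repeated probes of nearest level, which for dim probes can be brighter than the probe, or a probe's own repeats where it had more than 2 spots.

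Probes were named by RefSeq accession in a GRCm38.p6 gene table (26762 probes). The array design used another build, so no gene coordinates of that table are given. The members, lists and motifs were chosen with earlier results of these data known. Named are all members, list genes at least 2-fold apart in any comparison, up to 3 of the first genes of a list, and the 3 genes nearest to a member. Afp, Lcn2, Hes1, Trem2, Timd4, Vsig4, Csf1r, Gpm6a, Slc10a2, Gpbar1, Ano1, Ctrb1, Amy2a5 and Fabp2 were chosen after their values were seen. So were the genes named as not well above background. Some list genes are not reported here. Python 3.11.15, pandas 2.3.3, R 4.3.3 and limma 3.58.1 (normexp alternative) were used, and the steps were tested on simulated data.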

Additional observations from a re-analysis of the deposited data

Results flagged for a closer look

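In 2 genes the mutants differed from WT in opposite directions, each beyond spot error. For Sox9 the log2 differences from WT were -0.29 (1SA) and 0.22 (2SA). For Krt23 they were -1.43 and 0.24. Whether the effects of the mutants differ was not tested, since each group held 1 array and both comparisons use the same WT array. With normexp background correction, the Sox9 differences were -0.14 and 0.06, and those of Krt23 were -1.26 and 0.28. The Sox9 difference in 2SA was then no longer beyond the same spot error, so its opposite direction depends on the background correction.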

How the results depend on the processing

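With a 3-fold threshold, 1 member passed in 1SA against WT and 1 in 2SA against 1SA. With normexp on the median spot and background signals (offset 50), the member median was -0.29 for 1SA minus WT and 0.30 for 2SA minus 1SA, and 2 genes passed 2-fold in 1SA, Prom1 being at -0.89. Dim genes moved most: in 1SA minus WT, Krt7 came to -0.16, Epcam to -0.17 and Krt19 to -0.41. The offset draws dim values together by construction. The stricter filter left only Spp1 and Krt23, with medians of -1.58 and 1.54. With the mean of both Prom1 probes, 2SA minus 1SA was -0.03. Over the alternatives, 1SA minus WT ran from -1.74 to -1.68 for Spp1 and from -1.43 to -1.26 for Krt23. Quantile or median scaling, the series matrix, no filter and keeping outlier spots moved none of the 24 member differences by more than 1 spot error. No paired analysis was possible because there was 1 array per group, and neither the slide as a block nor leaving out a replicate could be run.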
